A study of Mus musculus with 10 samples.

Results

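The signal recognition particle (SRP) and its receptor were followed through 8 genes: Srp9, Srp14, Srp19, Srp54a, Srp68 and Srp72 of the particle, and Srpra (listed as Srpr) and Srprb of the receptor. They were chosen by name from 21896 protein-coding genes of the RefSeq table. A gene was given every peak whose summit, the position of highest tag pileup, lay in the gene span or within 5 kb of it. The data are XBP-1 chromatin immunoprecipitation sequencing (ChIP-seq) of mouse liver, made to find XBP-1 targets in liver metabolism. All mice were of strain C57BL/6J, and an antibody to XBP-1s, the active form of the factor, was used in all 8 libraries. Wild-type fed livers (Fed), wild-type fasted livers (Fasted), wild-type livers serving as controls of the knockout (WT) and livers with a liver-specific Ern1 knockout (Ern1-LKO) were each represented by 2 libraries. Another 2 libraries were liver DNA inputs. The labels give no age, no length of the fast, no feeding state for WT and Ern1-LKO, no Cre driver and no statement that replicates came from separate animals.

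In the cytosol, SRP, a complex of a small RNA and proteins, binds the signal sequence of a nascent secretory or membrane protein as it leaves the ribosome, slows elongation and carries the ribosome to the endoplasmic reticulum (ER). There the SRP receptor takes over, and the nascent chain is passed to the Sec61 channel. Hepatocytes export plasma proteins in bulk by this route. XBP-1s is made after the ER nuclease encoded by Ern1 splices Xbp1 mRNA, and it is known for inducing genes of protein entry into the ER, folding and export.

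Kept tags ran from 4.34M to 17.4M per library, and the deposited lists held from 698 to 82975 peaks (M stands for mega). Ern1-LKO replicate 1 had the shortest list despite 12.0M kept tags, and Ern1-LKO replicate 2 had 30796 peaks from 4.34M tags with a redundant rate of 0.47, the highest of the 8. One input served as control for Fed and Fasted and the other for WT and Ern1-LKO, so groups are compared only within those pairs. No read counts were used, and 2 libraries against 2 cannot give an exact permutation p below 0.33, so differences between groups are given as counts without a test. The depth behind a peak is given as its pileup, and no interval can be set on a peak that was not called. Binding in fewer cells and weaker binding per cell cannot be told apart in whole liver. Neither the Ern1 deletion nor cell composition can be read from peak lists. Of 19 marker genes of hepatocytes and other liver cells, 0 to 14 had a peak in a given library. It was 0 in Ern1-LKO replicate 1, beside 3.58% of all genes, and 14 in Fed replicate 1, beside 76.1%.

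A peak was called at each of the 8 genes in Fed replicates 1 and 2, Fasted replicate 1, WT replicates 1 and 2 and Ern1-LKO replicate 2. Only 5 of them had a peak in Fasted replicate 2, and only Srp72 had one in Ern1-LKO replicate 1. Both Fed libraries marked 8 of 8 genes, beside 68.7% of all genes, and both Fasted libraries 5 of 8, beside 43.1%. Both WT libraries marked 8 of 8, beside 18.2% of all genes, and both Ern1-LKO libraries 1 of 8, beside 3.54%. In the 6 libraries other than Fasted replicate 2 and Ern1-LKO replicate 1, a set named after seeing the data, 8 of 8 genes and 17.2% of all genes had a peak throughout. Across all 8 libraries this held for Srp72 alone, beside 2.64% of all genes. Of the 3758 genes marked in those 6 libraries, 81.0% also had a peak in Fasted replicate 2 and 15.9% in Ern1-LKO replicate 1, set beside 5 and 1 of the 8 genes.

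**Figure D1:**
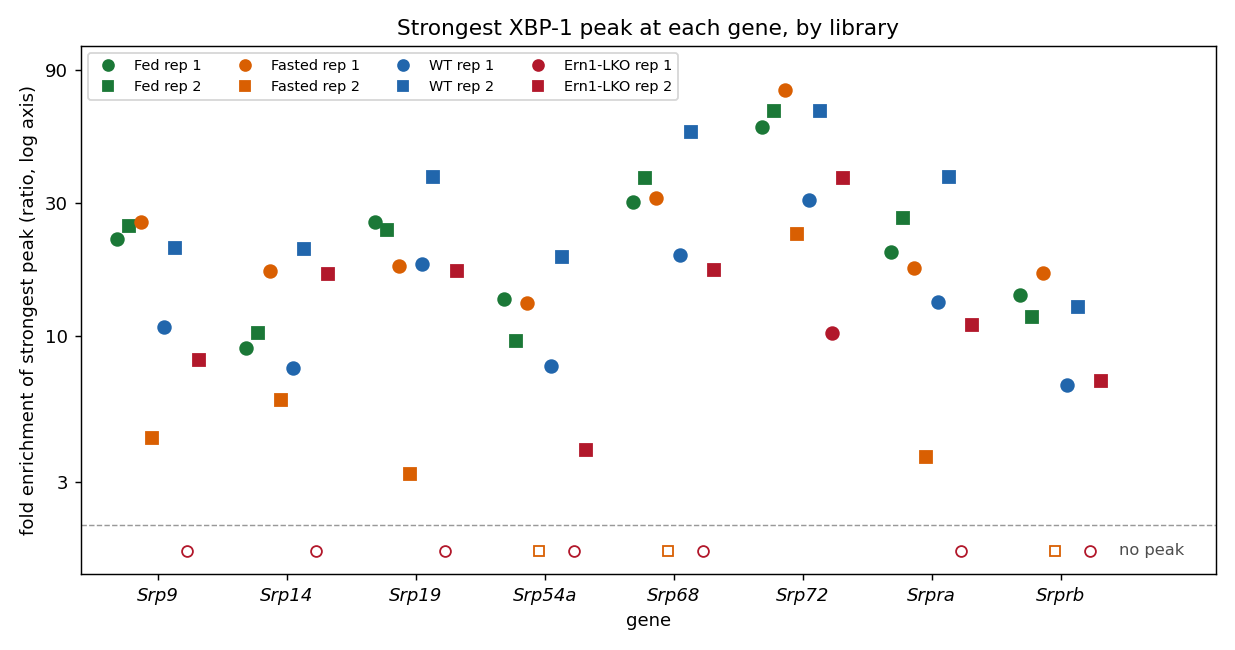
Fold enrichment of the strongest peak (ratio of pileup to local background, log axis) at each gene, with 1 point per library, circles for replicate 1 and squares for replicate 2; open symbols at the bottom mark libraries without a peak. Srp72 has a filled point in all 8 libraries, Fasted replicate 2 and Ern1-LKO replicate 1 supply all 10 open symbols, and folds of different lists are shown side by side as a description only.

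In all 54 pairs of gene and library with a peak, the strongest peak lay within 1 kb of an end of the gene span, at most 474 bp from it. The 54 pairs repeat the same 8 genes over libraries. Peak position was not counted over all genes, so it is not given as particular to these genes. At each gene it was always the same end. For the 6 genes with a promoter window in the RefSeq table it was the end of the listed start site. Srp19 and Srp68 have no listed window, and their peaks lay at the lower-coordinate and the higher-coordinate end. The summit fell inside the span in 46 cases and outside it in 8. The median length of these strongest peaks was 762 bp in Fed replicate 1, where the median over all peaks was 278 bp, and 426 bp against 255 bp in Ern1-LKO replicate 2. In Fasted replicate 2 the lengths were near those of other peaks, at a median of 316 bp against 288 bp. Strongest peaks are here set beside peaks of any strength. The strongest peaks of other genes were not measured, so length is not given as particular to these genes.

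**Figure D2:**
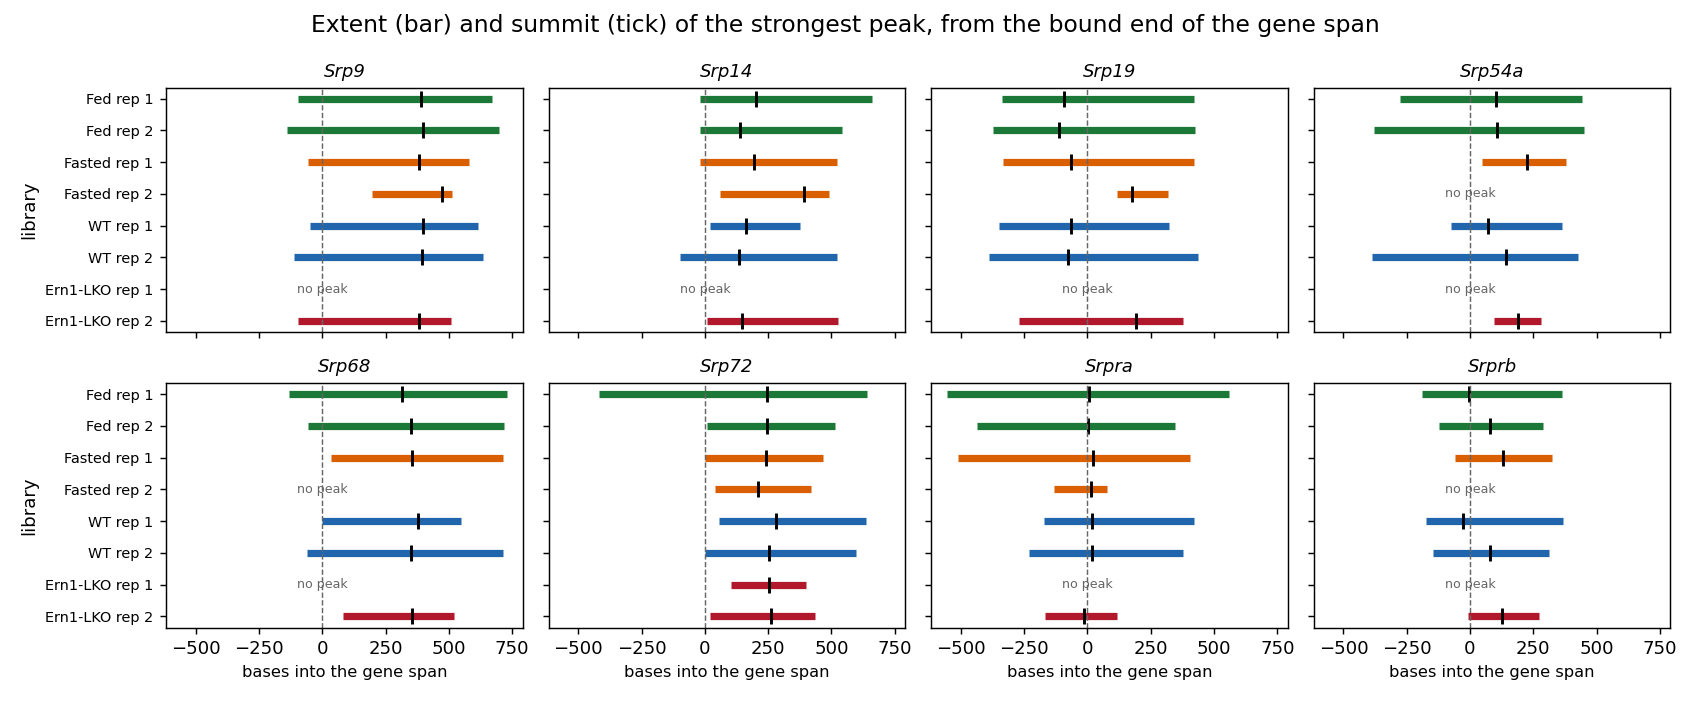
Extent (bar) and summit (tick) of the strongest peak at each gene in each library, in bases from the end of the gene span that carries it (dashed line), positive into the gene. Summits of Srp72 stay between 211 and 281 bp inside the gene in 8 libraries and those of Srpra between 12 bp before and 22 bp inside the end in 7. All missing bars belong to Fasted replicate 2 and Ern1-LKO replicate 1. Short bars are not confined to these lists, as Srp54a has its shortest (189 bp) in Ern1-LKO replicate 2.

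SRP68 and SRP72 form a heterodimer on the particle's RNA, and Srp72 (mm10 chromosome 5, 76974701 to 76999935) carried the strongest peak of the 8 genes in every library. Its fold enrichment, the ratio of tag pileup to local background in the authors' lists, reached 56.1 and 64.5 (Fed), 76.4 and 23.2 (Fasted), 30.9 and 64.4 (WT) and 10.3 and 36.9 (Ern1-LKO). By p-value within its own list the peak ranked 16 and 39 (Fed), 10 and 38 (Fasted), 25 in each WT list and 49 and 50 (Ern1-LKO). The rank thus stayed within the top 50 of lists that held between 698 and 82975 peaks. Pileups at the summit were 326 and 215 tags for Fed, 253 and 84 for Fasted, 214 and 278 for WT and 54 and 94 for Ern1-LKO. A shared region, overlapping by at least 1 bp between neighbours, joined all 8 peaks.

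Srp68 (chromosome 11, 116245166 to 116274217), the partner of Srp72, was enriched 30.4-fold and 36.8-fold (Fed), 31.3-fold (Fasted replicate 1), 19.6-fold and 54.1-fold (WT) and 17.3-fold (Ern1-LKO replicate 2). It had no peak in Fasted replicate 2 or Ern1-LKO replicate 1. Its rank was 107 in Fasted replicate 1, close to that of Srp9 (117) and ahead of Srpra (148), which both kept a weak peak in Fasted replicate 2. Of the 855 genes among the top 698 peaks of Fasted replicate 1, 25 (2.92%) had no peak at all in Fasted replicate 2, and Srp68 was 1 of them. In Ern1-LKO replicate 2 it ranked 1008, with a pileup of 43.

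SRP9 and SRP14 form the heterodimer that slows elongation. Srp9 (chromosome 1, 182124737 to 182132415) was enriched 22.3-fold and 24.9-fold (Fed), 25.7-fold and 4.3-fold (Fasted), 10.8-fold and 20.7-fold (WT) and 8.2-fold (Ern1-LKO replicate 2). Its ranks were 161 and 173 in Fed and 117 in Fasted replicate 1, but 15357 of 19237 in Fasted replicate 2. In WT it ranked 216 and 185, and in Ern1-LKO replicate 2 it ranked 6624. Srp14 (chromosome 2, 118475843 to 118479696) had lower folds in Fed, at 9.1 and 10.3, with ranks of 969 and 2865. The Fasted folds were 17.2 and 5.9, the WT folds 7.7 and 20.6, and the Ern1-LKO replicate 2 fold 16.7, at rank 1442. Srp14 therefore stood behind Srp9 in the Fed and WT lists and in Fasted replicate 1, and ahead of it in Fasted replicate 2 and Ern1-LKO replicate 2. Neither gene had a peak in Ern1-LKO replicate 1.

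SRP54 is the GTPase that binds the signal sequence, and Srp54a (chromosome 12, 55080476 to 55115367) had the lowest-ranked peak of the 8 in 5 of the 6 lists that marked all of them. Fold enrichment was 13.6 and 9.6 (Fed), 13.2 (Fasted replicate 1), 7.8 and 19.3 (WT) and 3.9 (Ern1-LKO replicate 2). The ranks were 356 and 4798 in Fed, 4657 in Fasted replicate 1 and 826 and 552 in WT. The Ern1-LKO replicate 2 peak ranked 30196 of 30796, with a pileup of 9 and a −log10 q of 2.8, so it lay close to the calling threshold. Fasted replicate 2 and Ern1-LKO replicate 1 had none. Srp54b and Srp54c are similar copies in the mouse genome. The listed windows of Srp54a and Srp54c matched at 263 of 273 aligned bases (96.3%), those of Srp54a and Srp54b at 62 of 66 (93.9%), and those of Srp54b and Srp54c at 91 of 91. A window has 300 bases, so in the pairs with Srp54b most of it was not aligned. Srp54b had no peak in any library and Srp54c only 1, in Fed replicate 1 (fold 4.7). How the authors treated reads that match several copies is not given in the sources used here, so calls at these copies are uncertain.

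SRP receptor subunit alpha, encoded by Srpra (chromosome 9, 35211203 to 35217003), is the GTPase that meets SRP at the ER membrane. Its peak had enrichments of 20.0 and 26.6 (Fed), 17.6 and 3.7 (Fasted), 13.3 and 37.2 (WT) and 11.0 (Ern1-LKO replicate 2). The corresponding ranks were 113, 108, 148, 15927, 166, 72 and 3738. The 7 summits fell within 34 bp of each other. They also lay 20 to 54 bp from the end of Foxred1, whose span ends 31 bp from that of Srpra, and a peak list cannot assign the peak to either gene. Likewise, the span of 2700097O09Rik ends 241 bp from Srp54a, with that gene's summits 315 to 467 bp away.

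Srprb (chromosome 9, 103188033 to 103202065) encodes the membrane-anchored beta subunit of the receptor. Fold enrichment was 14.1 and 11.7 (Fed), 16.9 (Fasted replicate 1), 6.7 and 12.7 (WT) and 6.9 (Ern1-LKO replicate 2). It ranked 257 and 884 in Fed, 709 in Fasted replicate 1, 438 and 378 in WT and 7537 in Ern1-LKO replicate 2. Neither Fasted replicate 2 nor Ern1-LKO replicate 1 had a peak.

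The RefSeq promoter windows (GRCm38.p6, the assembly of mm10, 250 bases before to 50 after the listed start site, 5′ to 3′ on the gene's strand) of 5 genes are shown because they differ in the ACGT core of XBP-1 type binding motifs. Capitals mark matches, on either strand, to the core ACGT and to longer motifs that contain it, namely TGACGT, then TGACGTG, and CCACGT. The windows lie at chr9:35210953-35211252 on the plus strand for Srpra, chr12:55080246-55080545 on the plus strand for Srp54a, chr9:103202016-103202315 on the minus strand for Srprb, chr2:118479647-118479946 on the minus strand for Srp14 and chr5:76974451-76974750 on the plus strand for Srp72.
Srpra: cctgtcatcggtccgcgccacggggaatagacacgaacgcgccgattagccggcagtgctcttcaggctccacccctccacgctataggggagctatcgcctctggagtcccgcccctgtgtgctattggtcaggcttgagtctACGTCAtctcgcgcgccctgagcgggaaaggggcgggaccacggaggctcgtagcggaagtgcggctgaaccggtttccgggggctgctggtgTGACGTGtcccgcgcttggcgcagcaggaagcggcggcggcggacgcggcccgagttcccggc
Srp54a: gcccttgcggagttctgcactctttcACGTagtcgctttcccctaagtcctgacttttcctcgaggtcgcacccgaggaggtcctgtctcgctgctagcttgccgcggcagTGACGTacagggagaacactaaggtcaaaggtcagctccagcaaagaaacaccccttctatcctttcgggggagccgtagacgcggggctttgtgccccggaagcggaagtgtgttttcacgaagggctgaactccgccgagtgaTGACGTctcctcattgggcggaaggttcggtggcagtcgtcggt
Srprb: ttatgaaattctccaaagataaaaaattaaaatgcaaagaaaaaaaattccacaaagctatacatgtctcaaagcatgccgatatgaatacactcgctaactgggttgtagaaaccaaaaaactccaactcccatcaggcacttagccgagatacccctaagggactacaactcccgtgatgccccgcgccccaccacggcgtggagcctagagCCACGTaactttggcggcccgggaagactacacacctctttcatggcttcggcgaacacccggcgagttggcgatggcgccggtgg
Srp14: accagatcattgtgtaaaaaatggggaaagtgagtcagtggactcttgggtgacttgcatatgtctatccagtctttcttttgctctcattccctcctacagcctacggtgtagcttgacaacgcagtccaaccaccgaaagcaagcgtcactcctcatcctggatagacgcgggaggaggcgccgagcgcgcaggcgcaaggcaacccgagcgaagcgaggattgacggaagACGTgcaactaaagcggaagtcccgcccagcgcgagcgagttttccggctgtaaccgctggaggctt
Srp72: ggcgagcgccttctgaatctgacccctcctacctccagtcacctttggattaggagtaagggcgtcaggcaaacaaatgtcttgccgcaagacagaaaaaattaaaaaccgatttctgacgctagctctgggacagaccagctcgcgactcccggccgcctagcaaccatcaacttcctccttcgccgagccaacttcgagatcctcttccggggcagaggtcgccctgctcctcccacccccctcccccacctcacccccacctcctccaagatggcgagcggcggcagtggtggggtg

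Of the 6 genes with a window, 4 held ACGT (Srp14, Srp54a, Srpra and Srprb), as did 30.9% of all 32851 windows in the table. TGACGT was found at Srp54a and Srpra, and in 7.51% of all windows. TGACGTG was found at Srpra alone, and in 2.01% of all windows, and CCACGT at Srprb alone, and in 8.31%. The TGACGTG of Srpra began 13 bases before the start site, and its middle lay 23 bases from the median summit of that gene. Srpra was also the gene whose window held the summit in all 7 libraries with a peak, and the Srprb window held it in 2 of 6. At Srp9, Srp14, Srp54a and Srp72 no summit fell in the window, because summits lay farther inside the gene.

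Srp72, with the highest ranks, had no ACGT in its window, and nor had Srp9. At Srp72 the median summit lay 250.5 bp into the gene, beyond the 50 bases that the window covers. CCAAT, which belongs to ER stress response elements, was found at Srp9, Srp54a and Srpra and in 37.4% of all windows. The longer TGACGTGG (0.676% of windows), CCAAT with CCACG after 9 bases (0.119%) and ATTGG with CCACG after 1 base (0.0365%) were found at none of the 6. All motifs were searched on both strands, and a match describes these letters only.

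SRP19 helps SRP54 join the RNA. Srp19 (chromosome 18, 34331121 to 34336599) was enriched 25.6-fold and 24.1-fold (Fed), 17.8-fold and 3.2-fold (Fasted), 18.2-fold and 37.2-fold (WT) and 17.1-fold (Ern1-LKO replicate 2). The ranks were 136 and 191 in Fed, 477 in Fasted replicate 1, 17834 in Fasted replicate 2, 153 and 116 in WT and 602 in Ern1-LKO replicate 2. Apart from Srp72, it was the only gene of the 8 that stayed among the top 698 peaks in Ern1-LKO replicate 2. It had no peak in Ern1-LKO replicate 1.

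**Figure D3:**
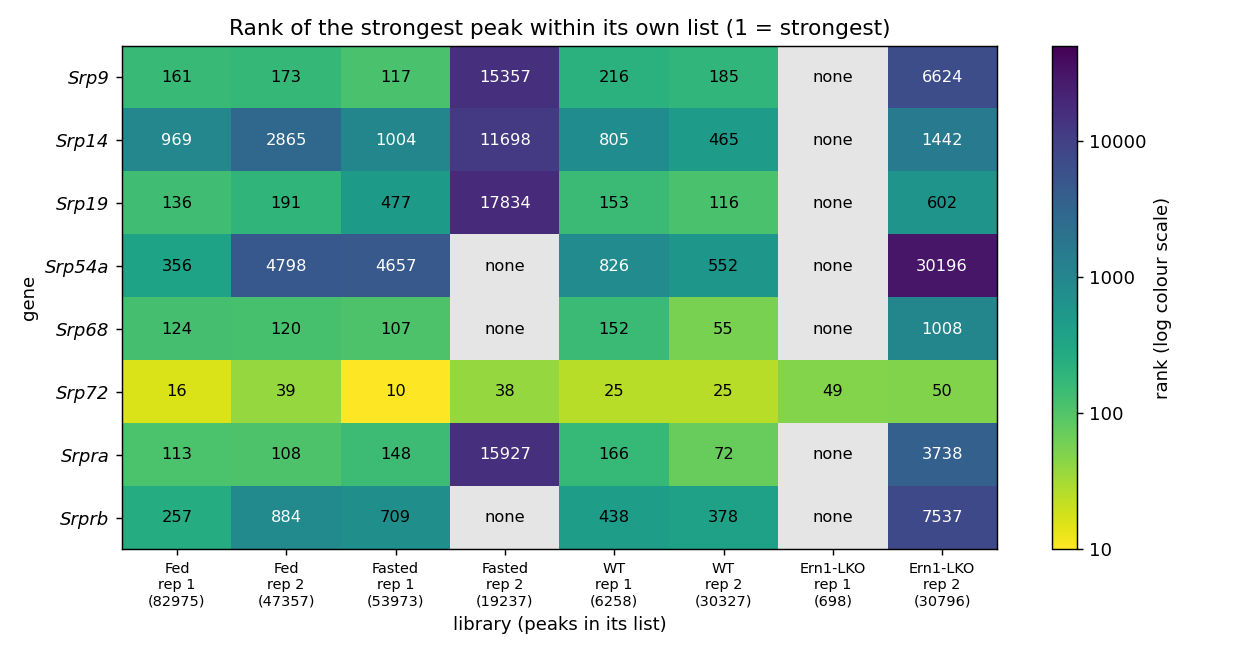
Rank of the strongest peak at each gene (rows) within the list of each library (columns, list length in brackets), on a log colour scale; grey cells have no peak. Srp72 holds ranks 10 to 50 throughout, while Fasted replicate 2 ranks the other 4 genes it marks at 11698 to 17834.

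The first comparison, of Fed with Fasted livers, concerns occupancy at these genes under feeding and fasting. No gene of the 8 (0) was Fed only, with a peak in both Fed libraries and in no Fasted library, where 1.2% of all genes did. None (0) was Fasted only by the same rule, where 0.0731% of all genes did. Folds at the 8 genes ran from 9.1 to 64.5 over the Fed libraries and from 13.2 to 76.4 in Fasted replicate 1. In Fasted replicate 2, folds at the 5 marked genes were 23.2 for Srp72 and 3.2 to 5.9 for Srp9, Srp14, Srp19 and Srpra, and pileups ran from 22 to 84. Srp54a, Srp68 and Srprb, which lacked a peak there, would be Fed only without Fasted replicate 1. Fasted replicate 2 also had a shorter list than Fasted replicate 1, at 19237 against 53973 peaks, with 9.62M and 8.38M kept tags. With each Fed and Fasted list cut to its 19237 top peaks, both Fed libraries still marked 8 genes and both Fasted libraries 5. This length is the whole list of Fasted replicate 2, so the count in both Fasted libraries could not rise. Fed only still held 0 of the 8 genes. The cause of the difference between the Fasted libraries was not tested.

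With lists of equal length, set by the 698 peaks of the shortest list, 7 and 5 of the 8 genes were among the top peaks of Fed and 5 and 1 among those of Fasted. Of all genes, 3.99% and 3.95% were in Fed and 3.9% and 2.93% in Fasted. The groups touch at 5. Genes in the top of both Fed libraries were Srp9, Srp19, Srp68, Srp72 and Srpra (5 of 8, beside 2.48% of all genes), and in both Fasted libraries Srp72 (1 of 8, beside 1.3%). All 5 were also in the top of Fasted replicate 1, where 60.9% of the 542 genes in the top of both Fed libraries were. None (0 of 8) was Fed only at this length, where 0.932% of all genes were.

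The other comparison, of WT with Ern1-LKO livers, concerns occupancy at these genes with and without Ern1. No gene of the 8 (0) was WT only, with a peak in both WT libraries and in no Ern1-LKO library, where 0.895% of all genes did. None (0) had the reverse, nor had any gene in the table (0.0%). Ern1-LKO replicate 2 had a peak at each of the 8 genes, with folds of 3.9 to 36.9, and Ern1-LKO replicate 1 had that of Srp72, with a fold of 10.3. Without Ern1-LKO replicate 2, all genes but Srp72 (7 of 8) would be WT only. The 698 peaks of Ern1-LKO replicate 1 marked 3.58% of all genes, against 62.4% in Ern1-LKO replicate 2.

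Among the top 698 peaks, 6 and 8 of the 8 genes were found in WT and 1 and 2 in Ern1-LKO, so the groups did not overlap. Of all genes, 3.54% and 4.01% were found in WT and 3.58% and 3.83% in Ern1-LKO, shares largely set by the common list length. Both WT libraries held 6 of 8 in their top (2.36% of all genes), and both Ern1-LKO libraries held 1 of 8 (1.86%). Srp9, Srp68, Srpra and Srprb were WT only at this length (4 of 8, beside 0.923% of all genes). Read within the 516 genes in the top of both WT libraries, 39.1% were in neither Ern1-LKO top, against these 4 of 6 genes. Srp72 was in the top of all 8 libraries, as were 0.553% of all genes. In Ern1-LKO replicate 2 the ranks of these 4 genes were 1008 to 7537, so each still had a peak. That library had the fewest kept tags, and the part of depth in these ranks was not tested.

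**Figure D4:**
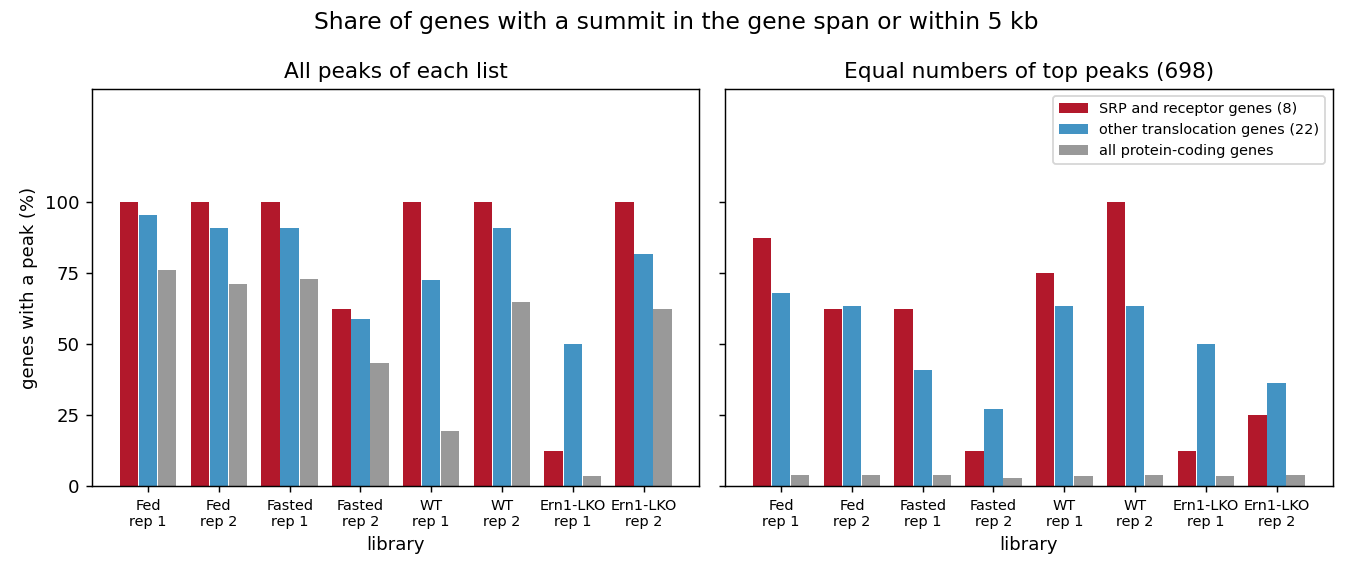
Percent of the 8 SRP and receptor genes, of 22 other translocation genes (Srp54b and Srp54c included) and of all 21896 protein-coding genes with a peak in each library, using all peaks (left) or the 698 top peaks (right). On the right, the WT libraries mark 6 and 8 of the 8 genes and the Ern1-LKO libraries 1 and 2. Of the 22 translocation genes, the WT libraries mark 14 each and the Ern1-LKO libraries 11 and 8. The share of all genes, 2.93% to 4.01%, is largely set by the common list length and is no control for these differences.

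A list of 22 other genes of co-translational translocation was counted in the same way. It holds the copies Srp54b and Srp54c, whose calls are uncertain, and 20 channel, signal peptidase, translocon-associated, nascent-chain-binding and chaperone genes. The copies add nothing to the counts that follow, which are therefore the same over these 20 genes. Peaks in both replicates were found at 20 of them for Fed, 13 for Fasted, 16 for WT and 10 for Ern1-LKO, and 8 genes had a peak in every library. Over all genes the shares were 68.7% (Fed), 43.1% (Fasted), 18.2% (WT), 3.54% (Ern1-LKO) and 2.64% (every library). The 8 were Sec61a1, the channel subunit, Sec63 and Tram1, which assist it, Ssr1 and Ssr3 of the translocon-associated complex, the signal peptidase genes Spcs2 and Spcs3, and Hspa5, the ER Hsp70. None of the 22 (0) was Fed only, beside 1.2% of all genes. Sec11a, a catalytic subunit of signal peptidase, was WT only, as were 0.895% of all genes. Among the top 698 peaks, the 22 genes numbered 15 and 14 (Fed), 9 and 6 (Fasted), 14 in each WT list and 11 and 8 (Ern1-LKO). Those peaks marked 2.93% to 4.01% of all genes, depending on the list. The top of Ern1-LKO replicate 1 thus held 11 of the 22 genes (11 of 20 without the copies). It held 1 of 8 SRP and receptor genes. The top of Ern1-LKO replicate 2 held 8 of the 22 genes and 2 of 8 SRP and receptor genes. The wide gap between the gene sets therefore rests on Ern1-LKO replicate 1. List length was the same by construction. At that depth Ssr2, Ssr4 and Spcs1 were WT only and, with Sec62, Fed only, beside 0.923% (WT only) and 0.932% (Fed only) of all genes.

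Beside the strongest peak of each gene and library, the windows held 24 further peaks, with folds of 3.3 to 13.4. Of these, 1 in each Fed list lay 131 and 227 bp inside the lower-coordinate end of Srprb, opposite its start site, with folds of 4.1 and 4.2. At Srp72 a region 4.5 kb before the span was called in Fed replicate 2, both Fasted libraries and Ern1-LKO replicate 2. Its fold was 13.4 in each Fasted library, and in Fasted replicate 2 it ranked 1652, ahead of the strongest peaks of Srp9, Srp14, Srp19 and Srpra in that list. Another region, 1.6 kb after the Srp72 span, was called in 5 libraries with folds of 4.4 to 10.5. At Srp9 a region 4.9 kb after the span was called in both Fed libraries and Fasted replicate 1, with folds of 7.2 to 11.1. A weak region inside Srp68, 9.2 kb from its lower-coordinate end, was called in Fed replicate 1 and Fasted replicate 1.

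Genes with the most similar profile were sought by the percentile of the strongest peak within each of the 8 lists, 0 where there was none. The median over the 8 genes was 99.82 and 99.62 (Fed), 99.42 and 12.26 (Fasted), 96.96 and 99.51 (WT) and 0.0 and 91.59 (Ern1-LKO). Srpra and Srp19 lay nearest to this median, at distances of 6.23 and 8.17 percentile points, and Srp72 farthest, at 128.11. Outside the members and the translocation list, the nearest were Morf4l1 (7.98), Ercc6l2 (8.61), Dusp23 (9.27), Ranbp2 (9.64) and Cks2 (10.39). Each of these 5 had a peak in every library but Ern1-LKO replicate 1. The choice itself favours this pattern, because the median was 0.0 in that list and above 0 in all others. Likeness here rests on 8 libraries and on ranks in lists of different length.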

How the data were processed

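XBP-1 ChIP-seq peak lists of 8 mouse liver libraries in 4 groups were used, with the authors' 4 pooled lists as an alternative. The tools named per the submitters' processing notes are Bowtie2 2.2.5, MACS2 2.2.1, FastQC 0.11.3 and bcl2fastq, with build mm10, while the file headers name MACS 2.1.1.20160309 with a q cutoff of 0.05 and 1 tag kept per position. The deposited values are a fold enrichment ratio, a tag pileup signal and −log10 p-values and q-values, all the authors' own. They described or ranked peaks within a list. Folds of different lists are set side by side without a test, and lists differ in depth and background.

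Peaks were ranked by −log10 p, ties by fold. Summits were matched to RefSeq gene spans of GRCm38.p6 with a 5 kb flank (python 3.11.15, pandas 2.3.3), and the window rule was checked on simulated peaks. Sequences are from RefSeq, and promoter windows matched 6 of 8 members. Groups came from sample titles. Counts over members are set beside all genes, with no test.

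The members, the lists of 22 translocation genes and 19 markers, and the alternatives were chosen with earlier results of these data known. Named genes were all members, neighbours with an end within 1 kb of a strongest summit, translocation genes at either extreme or called in 1 group only, and the 5 most similar genes, without predicted ones. Read coverage and input libraries were not analysed here.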

Additional observations from a re-analysis of the deposited data

How the results depend on the processing

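Of 110 recomputed member counts, 92 stayed within 1.5 times the value in the report and 18 did not. Counts of genes called in 1 group only were 0 in the report, and there staying means that the count was 0 again. Fasted only and Ern1-LKO only held just 0.0731% and 0.0% of all genes, so these counts had little room to move. The 92 is therefore no measure of stability. Requiring a summit within 1 kb of either gene end left the counts as they were. With 1 kb around the listed start site, which only 6 genes have, the count was 6 in place of 8 for both Fed and for both WT libraries and 4 in place of 5 for both Fasted libraries. The count in both Fasted libraries (5) fell to 1 at a −log10 q of at least 10, to 2 (Srp14 and Srp72) at a fold of at least 5 and to 1 with 698 top peaks, and was 8 with the pooled list. The count in both Fed libraries (8) was 5 with 698 top peaks. The count in both Ern1-LKO libraries (1) was 7 with the pooled list. The WT-only count (0) was 1, Srp54a, at a −log10 q of at least 5 and of at least 10, at a fold of at least 5 and with the pooled lists, and 4 with 698 top peaks, which is also the equal length within that comparison.

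Leaving out each library in turn gave 5 to 8 genes for both Fasted libraries, 1 to 8 for both Ern1-LKO, 1 to 5 for all 8 libraries, 0 to 3 for Fed only and 0 to 7 for WT only. The high ends came without Fasted replicate 2 (8), without Ern1-LKO replicate 1 (8 and 5), without Fasted replicate 1 (3) and without Ern1-LKO replicate 2 (7). Without Fasted replicate 2 and Ern1-LKO replicate 1 together, a setting chosen after seeing the data, all 8 genes had a peak in each remaining library. The cause was not tested beyond the smaller number of peaks or libraries that each setting uses. No paired analysis was possible because the counts come from no test, and the labels do not say that equal replicate numbers mark a shared animal or day.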

Other observations

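Summit positions were compared between libraries after their values were seen, with no test. At Srp19 the summits were 64 to 111 bp outside the span in both Fed libraries, Fasted replicate 1 and both WT libraries. They were 176 and 190 bp inside it in Fasted replicate 2 (fold 3.2) and Ern1-LKO replicate 2 (fold 17.1). Folds close to 17.1 were found in Fasted replicate 1 (17.8) and WT replicate 1 (18.2), with summits 64 and 65 bp outside. Srp14 and Srp9 stood apart in Fasted replicate 2 alone, at 391 bp inside the span against 133 to 203 bp elsewhere and at 474 bp against 380 to 398 bp. Lower folds did not go with deeper summits throughout. The Srp9 peak of Ern1-LKO replicate 2 (fold 8.2) lay at 380 bp, the Srp14 peak of WT replicate 1 (fold 7.7) at 164 bp, and the Srp54a summit farthest inside (225 bp) belonged to Fasted replicate 1 (fold 13.2). Srp68 summits lay 315 to 379 bp inside the span, and the Srp72 summit of Fasted replicate 2 lay 211 bp inside, less than in any other library.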
